A study of Mus musculus with 19 samples.

Results

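The effect of an inhibitor mixture against 3 microRNAs was examined in transgenic mice that deposit amyloid. Libraries were taken by their labels as APP anti-miR-mix (n = 7) and APP control (n = 6), which gave 13 of the 19 libraries of the series. Both groups were APPPS1-21 mice aged 7 months, a line that carries mutant human APP and presenilin 1 transgenes under Thy1 regulatory sequence, so that expression is driven mainly in neurons. APP anti-miR-mix mice received lipid nanoparticles with inhibitors of 3 microRNAs (miR-148a-3p, miR-181a-5p and miR-146a-5p) in the dorsal hippocampus, and APP control mice received a control oligonucleotide in the same carrier. The third group, WT control (n = 6), held littermates of the same age without the transgenes. Its labels name both the mixture and a control, the study describes it as given the control oligonucleotide, and its values serve only as a reference level. RNA of the dissected CA1 region was sequenced, and reads were counted per gene. The labels do not say whether an animal gave more than 1 library, so the p-values measure the spread between these libraries. Of 48709 genes counted, 19417 were tested, those that reached 5 counts in 50% or more of the 13 libraries.

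MicroRNAs are short RNAs that guide Argonaute proteins to messenger RNAs. Pairing of the seed, the bases near the 5′ end of the microRNA, with a site in the 3′ untranslated region usually lowers the level or the translation of the messenger. An antisense inhibitor binds the microRNA and blocks this pairing, so that targets can be released. miR-146a acts in a feedback loop on Toll-like receptor signalling, miR-181a is abundant in brain and lymphocytes, and miR-148a targets DNA methyltransferase and lipid genes.

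The sequences of the mixture are shown because they set which messengers could respond. The mature microRNAs follow from RefSeq (GRCm38.p6), each with the inhibitor that the study lists beside it, 5′ to 3′. Capitals mark the seed (bases 2 to 8) in the microRNA and the bases that face it in the inhibitor.
miR-146a-5p: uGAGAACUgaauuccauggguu
miR-146a-5p inhibitor: acccatggaattcAGTTCTC
miR-148a-3p: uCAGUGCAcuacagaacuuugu
miR-148a-3p inhibitor: caaagttctgtagTGCACT
miR-181a-5p: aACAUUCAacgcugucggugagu
miR-181a-5p inhibitor: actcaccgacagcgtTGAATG
control for the inhibitors: taacacgtctatacgccca
The inhibitor of miR-146a-5p paired with bases 2 to 21 and so with all 7 seed bases. The inhibitors of miR-148a-3p and miR-181a-5p began at base 3 and covered 6 seed bases each. The control of 19 bases had no run longer than 4 bases that paired with any of the 3 microRNAs.

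Relatives with the same seed are shown because an inhibitor could reach them as well, with capitals again on bases 2 to 8.
miR-146b-5p: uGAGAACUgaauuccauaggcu
miR-148b-3p: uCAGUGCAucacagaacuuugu
miR-152-3p: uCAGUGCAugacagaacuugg
miR-181b-5p: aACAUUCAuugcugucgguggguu
miR-181c-5p: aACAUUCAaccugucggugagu
miR-181d-5p: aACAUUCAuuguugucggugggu
Aligned without gaps, 2 of 20 inhibitor bases were unpaired against miR-146b-5p and 2 of 19 against miR-148b-3p. The number was 3 for miR-152-3p, 3 for miR-181b-5p and 4 for miR-181d-5p, and 12 of 21 for miR-181c-5p. However, miR-181c-5p (22 bases) has the bases of miR-181a-5p (23 bases) with a single g left out. Its ungapped count therefore runs out of register there, and does not show how far the inhibitor could pair across the gap. The libraries could not measure the microRNAs themselves. The precursor genes of the inhibited microRNAs (Mir146, Mir148a, Mir181a-1 and Mir181a-2) had 0 or 1 count in every library, and none of the 11 precursor genes of these families passed the filter.

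Depth was similar in both groups. APP control libraries held 24966818 to 31830517 counts and treated libraries 27242283 to 37018917. The mitochondrial share was 3.85 ± 0.759% of the counts in APP control (SD, n = 6) and 4.01 ± 0.811% in APP anti-miR-mix (SD, n = 7). Thy1, whose sequence the transgenes use, had 37494 to 65211 normalized counts in APP control and 44766 to 55965 in APP anti-miR-mix, and App had 69711 to 83764 and 67464 to 77280. WT control lay lower in both genes, with 18686 to 21348 for Thy1 and 50686 to 56391 for App. Markers of CA1 pyramidal neurons, Mpped1 and Ccn3 among them, were present in all 13 libraries, as were markers of CA3, the dentate gyrus and glia. Xist, which silences the second X chromosome of females, had at most 19.8 normalized counts in any of the 13 libraries. Each pair of libraries of the same group differed, with a chi-square per gene of 5.24 or more. A table of normalized values in the series had been adjusted with a whole number per library, from 1 to 4 in these 13 libraries. Its meaning was not stated, and each of the 4 values held libraries of both groups. Mitochondrial genes took 2.84 to 3.39% of the counts in the 5 libraries with number 1 or 2 and 3.87 to 4.87% in the 8 with number 3 or 4. On the first principal component the 4 libraries with number 4 lay at 8.64 to 16.5 and all others at 2.52 or below.

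The first question was how many genes differed after inhibition. With DESeq2, 3 genes passed an adjusted p of 0.05, which is 0.0155% of the 19399 genes with a p. Fn1 was higher in APP anti-miR-mix, and Nptx2 and the transcript Gm35021 were lower. At an unadjusted p under 0.05, 345 genes were higher (1.78% of those tested) and 297 were lower (1.53%). The smallest adjusted p beyond the 3 called genes was 0.175. With the adjustment number as a factor, an alternative chosen after seeing the data, DESeq2 called 15 genes (9 higher and 6 lower), the 3 genes included. The median log2 fold change of all genes, given throughout as APP anti-miR-mix minus APP control, was -0.0008.

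The spread between libraries sets how closely a difference is bounded. Among the 14173 genes with a mean normalized count of at least 50, the standard error (SE) of the log2 fold change had a median of 0.0863. For 91.9% of them the 95% interval lay within 0.5 of 0 on the log2 scale, and for 99.1% it lay within 1. Only 78 of these genes had a log2 fold change beyond 0.5 in either direction, and 7 had one beyond 1.

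**Figure D1:**
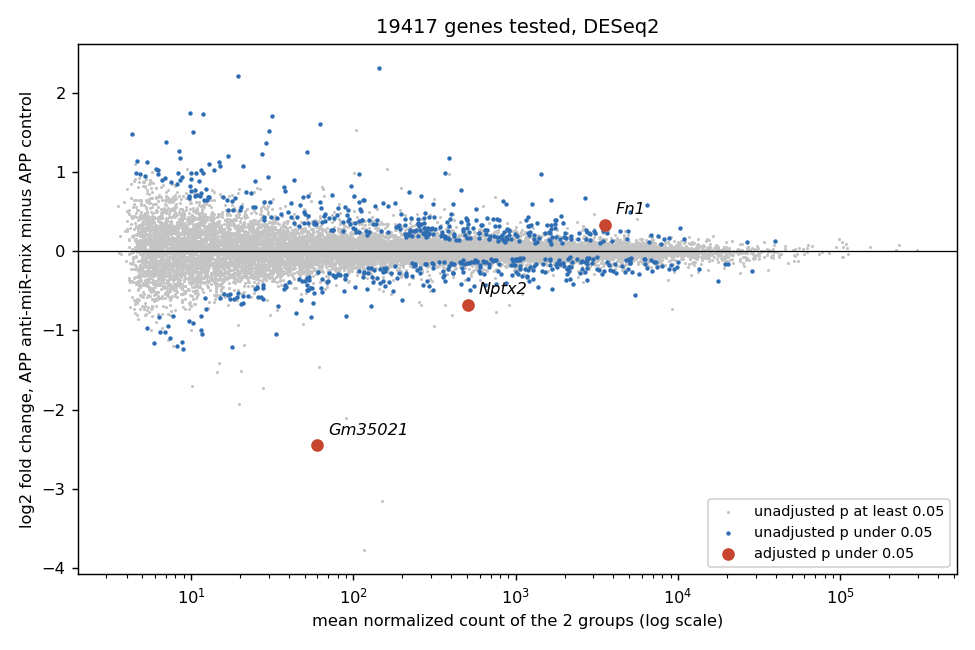
Log2 fold change of each tested gene (APP anti-miR-mix minus APP control, vertical axis) against its mean normalized count (horizontal axis, log scale). Blue points have an unadjusted p under 0.05, and the 3 red points, Gm35021, Nptx2 and Fn1, are those that passed the adjusted threshold; nearly all abundant genes lie close to 0.

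Gm35021 is a processed transcript of unknown function (ENSMUSG00000109714, GRCm38 chromosome 8, 35724175 to 35757517, plus strand). In APP control it had 140.5, 25.9, 114.3, 128.5, 109.1 and 85.5 normalized counts in replicates 1 to 6. In APP anti-miR-mix it had 19.5, 10.9, 20.4, 15.4, 17.0, 27.3 and 18.9 in replicates 1 to 7. All treated libraries were low, and APP control replicate 2 lay among them, so the groups overlapped. The log2 fold change was -2.45 (SE 0.31, DESeq2 adjusted p = 4.44e-11). A two-sided exact permutation test over 1716 splits gave an unadjusted p of 0.00117. WT control was split as well, with 119.7 and 126.0 in replicates 1 and 2 and 7.99 to 29.4 in the other 4. The call was lost when all 19 libraries shared a fit (adjusted p = 0.0892) and in limma on the deposited table (adjusted p = 0.104). Within the 4 adjustment numbers the difference of mean log2 values was -2.79, -0.76, -2.83 and -2.04. Of the 14 other tested genes within 1000000 bases, 1 had an unadjusted p under 0.05, Gm19410, with a log2 fold change of 0.23 (SE 0.11).

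Nptx2 encodes neuronal pentraxin 2, a secreted protein that is induced by activity and clusters AMPA receptors at excitatory synapses onto interneurons (chromosome 5, 144545902 to 144557478). APP control replicates 1 to 6 had 771, 724, 562, 572, 666 and 451 normalized counts. APP anti-miR-mix replicates 1 to 7 had 470, 345, 476, 402, 402, 351 and 285. Of the 7 treated libraries 5 lay below all controls, and the other 2 lay above APP control replicate 6 only. The log2 fold change was -0.68 (SE 0.14, 95% interval -0.95 to -0.40, DESeq2 adjusted p = 0.0119), with an unadjusted exact permutation p of 0.00233. WT control had 538.5 to 1208 normalized counts. The difference within the 4 adjustment numbers was -0.71, -0.84, -0.50 and -0.79. The adjusted p was 0.99 with edgeR, 0.213 with edgeR and the adjustment number, 0.434 with 19 libraries in the fit and 0.104 with limma. It was 0.181 without APP control replicate 1, 0.13 without replicate 2 and 0.0822 without replicate 5. It was 0.0895, 0.0504 and 0.0687 without APP anti-miR-mix replicates 2, 5 and 6. In bulk tissue, fewer cells of a type and less RNA per cell cannot be told apart.

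Fn1 encodes fibronectin, a glycoprotein of the extracellular matrix and of blood plasma that binds integrins (chromosome 1, 71585520 to 71653200). APP control replicates 1 to 6 had 2986, 2816, 3352, 2890, 3697 and 3163 normalized counts. APP anti-miR-mix replicates 1 to 7 had 4044, 4199, 4121, 3673, 4203, 3565 and 3898. The treated libraries were high, 5 of them above all controls, and replicates 4 and 6 lay below APP control replicate 5. The log2 fold change was 0.33 (SE 0.07, 95% interval 0.19 to 0.47, DESeq2 adjusted p = 0.0248), with an unadjusted exact permutation p of 0.00233. WT control had 3261 to 4360 normalized counts, a range that included all treated values. Within the 4 adjustment numbers the difference was 0.44, 0.56, 0.34 and 0.12. The adjusted p was 0.99 with edgeR, 0.825 with edgeR and the adjustment number, 0.0501 without the filter, 0.0892 with 19 libraries in the fit and 0.482 with limma. It was 0.286, 0.167 and 0.235 without APP control replicates 1, 2 and 4. It was 0.185, 0.188, 0.213, 0.226 and 0.0849 without APP anti-miR-mix replicates 1, 2, 3, 5 and 7. Fn1 shares exonic positions with Apol7d, and the library kit keeps no strand, so the reads of the pair cannot be told apart. Of the 18 extracellular matrix genes listed, Fn1 was the only call. The median log2 fold change of the list was -0.011, and 0.038 without APP control replicate 3. Tnr, the tenascin of perineuronal nets, was lower at an unadjusted p under 0.05 (log2 fold change -0.13).

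**Figure D2:**
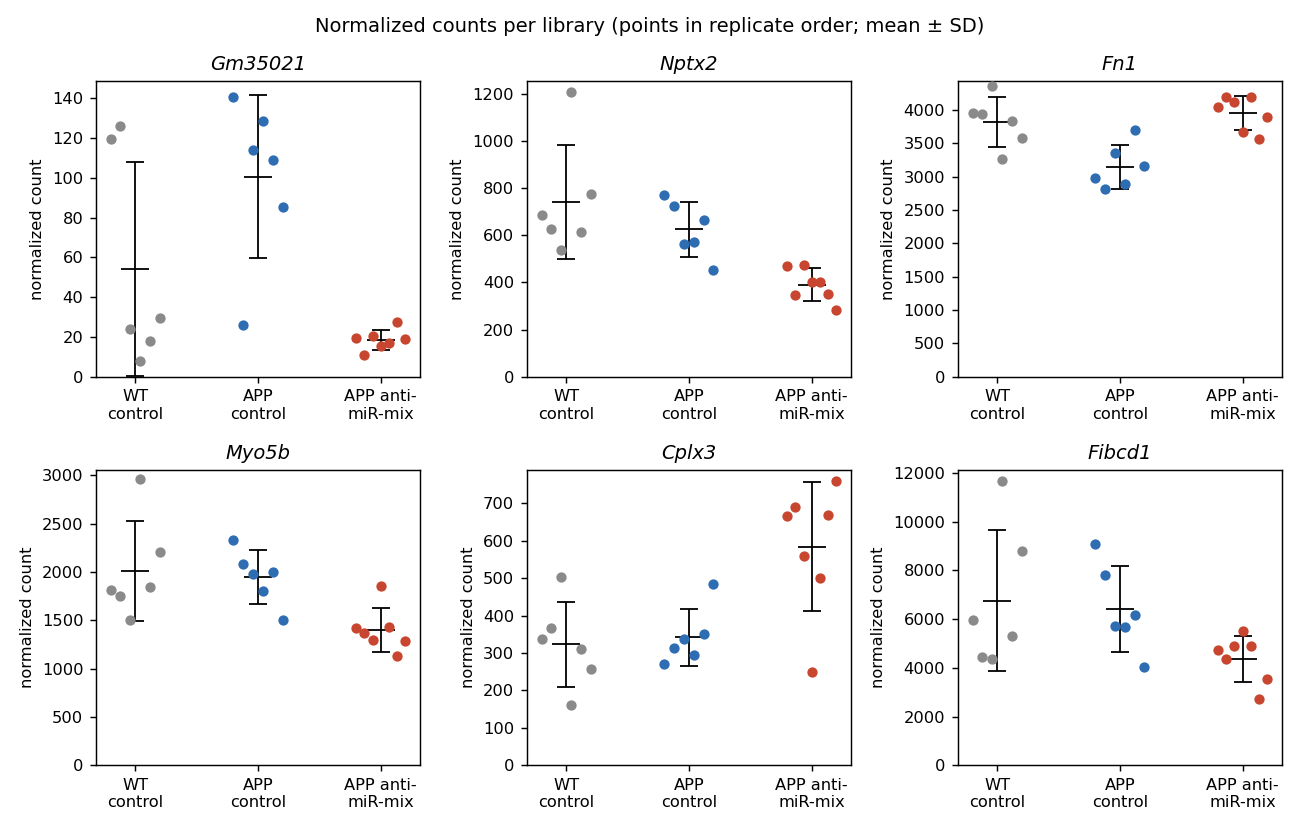
Normalized counts (vertical axes, from 0) of 6 genes in each library of WT control (grey), APP control (blue) and APP anti-miR-mix (red), with the mean and SD as bars. Gm35021, Nptx2, Myo5b and Fibcd1 sit lower and Fn1 and Cplx3 higher in most treated libraries; the sixth APP control and the fourth treated library lie towards the other group in Myo5b, Cplx3 and Fibcd1.

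Beyond the 3 calls, the genes with the smallest unadjusted p were examined by a fixed rule, 12 per direction among genes with a mean normalized count of at least 50. None of the other 21 passed the adjusted threshold (adjusted p from 0.175), so their values are given as descriptions. Genes with lower values included the membrane traffic motor Myo5b, the potassium channel Kcnh1, the adhesion protein Amigo2, the guanine nucleotide exchange factor Arhgef28, the growth factors Bmp2 and Tgfb2, the sodium-proton exchanger Slc9a4 and the DNA repair factor Rad50. Myo5b had 1501 to 2332 normalized counts in APP control and 1128 to 1860 in APP anti-miR-mix, a log2 fold change of -0.48 (SE 0.12). Kcnh1 had 1002 to 1247 and 907 to 1037, a log2 fold change of -0.23 (SE 0.06). The remaining genes of this direction, Lmo7 and Tppp3 among them, had log2 fold changes from -0.49 for Slc9a4 to -0.18 for Rad50. Amigo2 shares exonic positions with Pced1b, and Tgfb2 and Slc9a4 overlap predicted transcripts without a described function.

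Genes with higher values included the complexin Cplx3, which regulates vesicle fusion, the histamine receptor Hrh1, the AMPA receptor auxiliary subunit Gsg1l, the presynaptic glutamate receptor Grm2, the potassium channel Kcnj12, the adenylyl cyclase Adcy8 and the transcription factors Emx1, Etv6 and Nr6a1. Cplx3 had 270.0 to 484.5 normalized counts in APP control and 249.5 to 759.5 in APP anti-miR-mix, a log2 fold change of 0.77 (SE 0.21). Gsg1l had 1058 to 1810 and 1101 to 2815, a log2 fold change of 0.65 (SE 0.19). The other genes of this direction, with Klhdc8a and Fstl4, ranged from 0.21 for Etv6 to 0.48 for Fstl4. Of the 24 genes Kcnh1, Etv6 and Nr6a1 are predicted targets of miR-181a-5p, and Tgfb2 of miR-148a-3p and miR-181a-5p.

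The number of called genes changed with the model and with single libraries. It was 24 with replicate numbers as a block, 22 with Thy1 as a covariate and 15 with the adjustment number in DESeq2, among them 9, 8 and 7 of the 24 named genes. It was 1 with edgeR, with or without the adjustment number, and 0 with all 19 libraries in the DESeq2 fit and with limma on the deposited table (552 and 999 genes at an unadjusted p under 0.05). Without APP control replicate 6, 51 genes passed (38 higher and 13 lower in APP anti-miR-mix), among them 12 of the 24 named genes. Without APP anti-miR-mix replicate 4, 37 genes passed (25 higher and 12 lower), among them 14 of the 24. The sets shared 15 genes, which is 29.4% of the first and 40.5% of the second. Leaving out any other library gave 1 to 3 genes. APP control replicate 6 had the highest control value of Cplx3 (484.5), Gsg1l (1810) and Cux2 (2241), and the lowest of Nptx2 (451), Myo5b (1501) and Fibcd1 (4049). APP anti-miR-mix replicate 4 had the lowest treated value of Cplx3 (249.5), Gsg1l (1101) and Cux2 (1409), and the highest of Myo5b (1860) and Fibcd1 (5506).

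**Figure D3:**
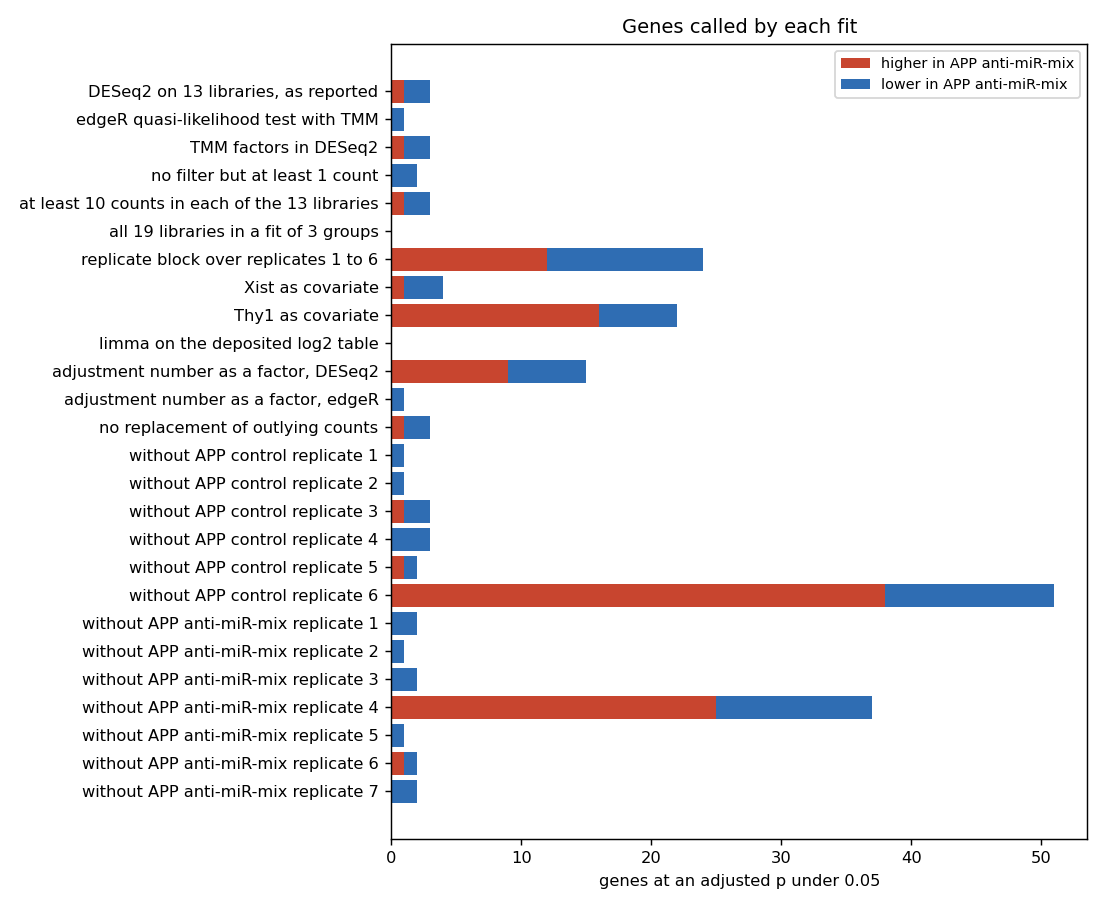
Number of genes past an adjusted p of 0.05 (horizontal axis) in each fit, split into genes higher (red) and lower (blue) in APP anti-miR-mix. The reported fit called 3 genes, and the longest bars are the fits without APP control replicate 6 (51 genes) and without APP anti-miR-mix replicate 4 (37 genes).

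Markers of the dissected region gave values in both directions. Among 6 CA1 markers, Fibcd1 was lower at an unadjusted p under 0.05 (4049 to 9092 normalized counts in APP control and 2720 to 5506 in treated libraries, log2 fold change -0.55, SE 0.18) and Wfs1 was higher (2834 to 7945 and 4032 to 10430, log2 fold change 0.58, SE 0.22). Neither passed the adjusted threshold in the reported fit (adjusted p of 0.972 and 1). Fibcd1 passed it in 3 of 25 alternative fits and Wfs1 in 0. Mpped1, the most abundant CA1 marker, differed by 0.01 (SE 0.08). The 6 markers summed to 30526 to 44669 normalized counts in APP control and 31236 to 38491 in APP anti-miR-mix. Of 5 CA3 markers, Nptx1 (-0.23, SE 0.09) and Iyd (-1.24, SE 0.50) had log2 fold changes below 0 at an unadjusted p under 0.05, with sums of 9234 to 12482 and 8009 to 10698. Over all tested genes 1.78% were higher and 1.53% lower at that level. Iyd had few reads, with a mean of 12.4 normalized counts in APP control and 5.36 in treated libraries. The 7 dentate markers had none at that level and a median log2 fold change of -0.177, which was 0.063 without APP control replicate 3.

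A list of cortical layer markers was chosen after the values were seen, because Cplx3 and Cux2 belong to it, and gives a description only. Of its 9 tested members 8 had a log2 fold change above 0, with a median of 0.207. Cux2, a transcription factor of upper layers, had 1280 to 2241 normalized counts in APP control and 1409 to 2683 in treated libraries. Its log2 fold change was 0.44 (SE 0.15), and that of Foxp2 was 0.42 (SE 0.19). Neither passed the adjusted threshold in the reported fit, and Cux2 passed it in 3 of 25 alternative fits and Foxp2 in 0. The list summed to 11090 to 14136 normalized counts in APP control and 11394 to 15219 in APP anti-miR-mix. Lists of thalamus and striatum markers, chosen in the same way, had medians of 0.09 (0.002 without APP control replicate 1) and 0.251 (0.394 without APP control replicate 5) over 5 genes each. Their only member at an unadjusted p under 0.05 was Lef1 (0.56, SE 0.19), where 1.78% of all tested genes were higher. The part of cortical or subfield tissue in the differences was not tested.

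Groups that did not overlap were rare. In 6 genes, 0.0309% of those tested, every treated library was below every control library, and in 0 genes every treated library was above. Amigo2 (294 to 472 normalized counts in APP control and 200.4 to 293 in APP anti-miR-mix) and Bmp2 (101.7 to 149 and 66.7 to 99.8) were among them. The other 4, named after their values were seen, were Phax, D6Wsu163e, Zpld1 and Ceacam2. None of the 6 passed the adjusted threshold in the reported fit (adjusted p of 0.917 or more), and Amigo2 passed it in 1 of 25 alternative fits. The number was 50 without APP control replicate 6 and 49 without APP anti-miR-mix replicate 4, and between 12 and 30 without any other library.

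The next question was whether the messengers with predicted sites differed in level. Translation was not measured. The TargetScan predictions that the study lists were matched to the genes, which gave 263 tested targets of miR-146a-5p, 609 of miR-148a-3p and 1035 of miR-181a-5p, and 1684 of any of the 3. The predicted targets lay at the level of all genes. Their median log2 fold change was -0.0043, 0.0013 and 0.0016 for the single microRNAs, and for any of the 3 it was 0.0010 above that of all tested genes. Of the 1684 targets 50.1% had a log2 fold change above 0, against 49.6% of all tested genes. At an unadjusted p under 0.05, 26 were higher (1.54%, against 1.78% of all tested genes) and 37 were lower (2.20%, against 1.53%). In the reported DESeq2 fit 0 of them passed the adjusted threshold. The alternatives called the targets Tgfb2 in 3 of 25 fits and Kcnh1 in 1. The single gene that edgeR called, Gm35021, is not on the lists. Targets were more abundant than other genes (median of the mean normalized count 1432 against 385 over all genes), and their fold changes were spread less. With a mean normalized count of at least 500, 31 of 1279 targets (2.42%) and 1.66% of all such genes were lower at that level, and 16 targets (1.25%) and 1.38% of all such genes were higher.

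**Figure D4:**
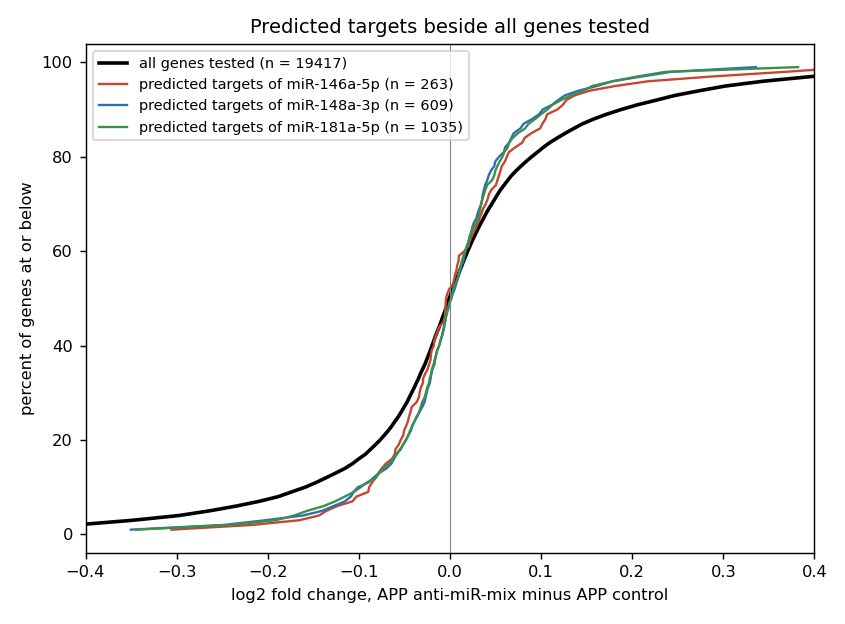
Share of genes (vertical axis, percent) at or below each log2 fold change (horizontal axis) for all 19417 tested genes (black) and for the predicted targets of miR-146a-5p (red), miR-148a-3p (blue) and miR-181a-5p (green). The 4 curves cross near 0 and 50%; the target curves are steeper and are not shifted to the right.

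Single libraries departed from this level in both groups. Relative to all genes with a mean normalized count of at least 50, the median deviation of the targets from the mean of the 13 libraries lay between -0.0968 and 0.1034 in the controls and between -0.0623 and 0.0386 in the treated libraries, on the log2 scale. The control range covered the treated range. The value was below 0 in all 5 libraries with adjustment number 1 or 2 and above 0 in all 4 with number 4. Sites were also counted in the longest annotated 3′ untranslated region of each gene (GENCODE M21), as an 8mer (seed match bases 2 to 8 followed by A), a 7mer-m8 (bases 2 to 8) or a 7mer-A1 (bases 2 to 7 followed by A). The median log2 fold change was 0.0034 for 686 genes with an 8mer for miR-146a-5p, -0.0008 for 626 with an 8mer for miR-148a-3p and 0.0046 for 897 with an 8mer for miR-181a-5p. It was -0.0027, -0.0023 and -0.0030 for genes without a site of the same microRNA. The 1215 genes with a 7mer-m8 for miR-146a-5p as their best site had a median of 0.005. At an unadjusted p under 0.05, 26 of them were higher (2.14%) and 11 were lower (0.905%). Over all tested genes the shares were 1.78% and 1.53%. Genes with an 8mer for miR-146a-5p had 7 higher (1.02%) and 11 lower (1.6%) at that level. Those with an 8mer for miR-148a-3p had 10 (1.6%) and 15 (2.4%), and for miR-181a-5p 15 (1.67%) and 14 (1.56%). Fn1 has 1 site for miR-146a-5p, a 7mer-A1, and none for the other microRNAs, and Nptx2 has no site for any of the 3. The genes without a site of the same microRNA had shorter 3′ regions than those with an 8mer. Their medians were 913.5, 908 and 880 bases, against 2747, 2305 and 2628 bases for the genes with an 8mer. The part of that length in the differences was not tested. The 219 genes with an 8mer or 7mer-m8 for all 3 microRNAs had a median of 0.0195, with 60.7% above 0, a median 3′ region of 5185 bases, and 4 genes higher and 4 lower at an unadjusted p under 0.05 (1.83% each, against 1.78% and 1.53% of all tested genes).

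Genes on several lists would be reached by more than a single inhibitor. Of the 213 targets of at least 2 microRNAs, 1 was higher (0.469%, against 1.78% of all tested genes) and 6 were lower (2.82%, against 1.53%) at an unadjusted p under 0.05. The kainate receptor Grik3 was the higher gene (2490 to 4266 normalized counts in APP anti-miR-mix and 2754 to 2942 in APP control, log2 fold change 0.23, SE 0.11). Tgfb2 and the lamin B receptor Lbr (-0.17, SE 0.07) were among the lower genes. The 10 targets of all 3 microRNAs were Slitrk3, D1Ertd622e, Qk, Nova1, Lcor, Mybl1, Hipk3, Zdhhc7, Sox5 and Rnf103. Their log2 fold changes ranged from -0.14 for the synapse organizer Slitrk3 (SE 0.06) to 0.13 for the splicing regulator Qk (SE 0.18), and 7 of them were above 0.

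Targets reported in the field were read singly. A site from each of several such genes is shown as DNA of the messenger strand on GRCm38, with the seed match in capitals.
Irak1 (miR-146a-5p, 8mer, chrX:74015391-74015414, minus strand): gactcagaggtcaaAGTTCTCAtg
Erbb4 (miR-146a-5p, 8mer, chr1:68032379-68032402, minus strand): aggctttttgaggtAGTTCTCAag
Dnmt1 (miR-148a-3p, 8mer, chr9:20907489-20907512, minus strand): cccagagccccacgTGCACTGAtg
Abca1 (miR-148a-3p, 7mer-m8, chr4:53033881-53033903, minus strand): gcgaggtcttccttTGCACTGtg
Gria2 (miR-181a-5p, 7mer-m8, chr3:80688570-80688592, minus strand): tcctggcatgggaaTGAATGTca
Fos (miR-181a-5p, 7mer-m8, chr12:85477044-85477066, plus strand): ttgtcgaggtggtcTGAATGTtc
Irak1, the receptor kinase of the miR-146a loop, had 2228 to 2395 normalized counts in APP control and 2072 to 2317 in APP anti-miR-mix. Its log2 fold change was -0.03, with a 95% interval from -0.10 to 0.04. Erbb4, the neuregulin receptor, differed by 0.16 (interval -0.20 to 0.52), and by 0.06 to 0.33 when 1 library was left out. The DNA methyltransferase Dnmt1 had 1902 to 2183 and 1800 to 2382 normalized counts and differed by 0.03 (interval -0.10 to 0.17). The lipid exporter Abca1 differed by 0.13 (interval -0.14 to 0.40), and by 0.04 to 0.21 when 1 library was left out.

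The AMPA receptor subunit Gria2 had 20735 to 32696 normalized counts in APP control and 21005 to 29600 in APP anti-miR-mix, a log2 fold change of -0.12 (interval -0.34 to 0.11). The chaperone Hspa5 differed by 0.01 (interval -0.07 to 0.09). Fos, an activity-induced transcription factor, was the only reported target at an unadjusted p under 0.05, and it was lower (344 to 484 and 211 to 442 normalized counts, a log2 difference of -0.30 with SE 0.15 and an adjusted p of 1). Over the lists, 7 of 10 targets of miR-146a, 6 of 10 of miR-148a and 6 of 14 of miR-181a had a log2 fold change above 0, with medians of 0.026, 0.007 and -0.035, and between -0.054 and 0.047 without a library. No reported target passed the adjusted threshold in DESeq2. The 13 genes of microRNA processing and Argonaute loading, Drosha, Tnrc6b and Tnrc6c among them, had log2 fold changes from -0.04 to 0.04, and 0 had an unadjusted p under 0.05.

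Genes that respond to foreign nucleic acid were also examined. Both groups received an oligonucleotide in the same carrier, so a response common to both cannot be seen in this comparison. No member of the interferon response list or of the nucleic acid sensor list had an unadjusted p under 0.05. All 14 interferon response genes had a log2 fold change above 0, with a median of 0.282, and 11 of 13 sensors did, with a median of 0.145. Stat2, a transducer of interferon signals, differed by 0.08 (SE 0.09), the antiviral gene Oasl2 by 0.30 (SE 0.37) and the RNA-activated kinase Eif2ak2 by 0.14 (SE 0.16). The interferon list summed to 5090, 8453, 6604, 8284, 4650 and 9598 normalized counts in APP control replicates 1 to 6. It summed to 7245, 4884, 10643, 9601, 10175, 9263 and 5669 in APP anti-miR-mix replicates 1 to 7. Low and high libraries occurred in both groups, and the ranges overlapped nearly throughout. The median was 0.126 without APP control replicate 5 and 0.399 without APP anti-miR-mix replicate 2, the lowest and highest among the fits that left out a library. The sensor median was 0.039 without APP anti-miR-mix replicate 4 and 0.222 without replicate 2.

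No gene of the glial lists passed the adjusted threshold in DESeq2, and intervals were wide, such as -0.59 to 0.68 for the microglial receptor Trem2. Of 20 genes of plaque microglia 19 had a log2 fold change above 0, against 49.6% of all tested genes, with a median of 0.125. At an unadjusted p under 0.05, 1 of the 20 was higher, where 1.78% of all tested genes were. This was Spp1, the secreted protein osteopontin, with 304 to 1546 normalized counts in APP control and 520 to 3222 in treated libraries (log2 difference 0.97, SE 0.43, DESeq2 adjusted p = 1). Apoe, Ctsb and Ctsd, the most abundant members, differed by 0.05, 0.06 and 0.12. The list summed to 103621 to 199134 normalized counts in APP control and 122145 to 184534 in APP anti-miR-mix, and the median was -0.018, with 9 of 20 genes above 0, without APP control replicate 5 and 0.244, with 20 of 20, without APP control replicate 2. Homeostatic microglia genes had a median of 0.063 and complement genes 0.012, with 0 of 12 and 0 of 11 at an unadjusted p under 0.05. Without APP control replicate 5 the homeostatic median was -0.066, with 2 of 12 genes above 0 in place of 11, and the complement median ran from -0.043 without APP anti-miR-mix replicate 4 to 0.109 without APP control replicate 2. In the antigen presentation list 1 of 12 genes was higher at an unadjusted p under 0.05. This was Ciita, the regulator of class II genes (28.0 to 70.2 and 62.0 to 110.7 normalized counts, log2 fold change 0.47, SE 0.19). B2m differed by 0.08 (SE 0.20). Ciita shares exonic positions with Dexi.

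Among astrocyte genes, Gfap, the filament protein of reactive astrocytes, had 29939 to 76256 normalized counts in APP control and 36125 to 65377 in APP anti-miR-mix, a log2 fold change of -0.04 (SE 0.21). The reactive list had a median of -0.163 over 12 genes, and of -0.079 without APP anti-miR-mix replicate 2. Its only member at an unadjusted p under 0.05 was Cd44 at 0.47 (SE 0.21), where 1.78% of all tested genes were higher. The 10 general astrocyte genes had a median of 0.015 and none at that level, and the glutamate transporter Slc1a2 differed by 0.09 (SE 0.08). Myelin genes had a median of -0.087 (-0.003 without APP anti-miR-mix replicate 7 and -0.193 without APP control replicate 5) with 0 of 12 at that level, and Mbp differed by -0.07 (SE 0.17). The lists of oligodendrocyte precursors, endothelium, mural cells, blood, and fibroblasts and meninges had 0 members at that level, with medians of -0.026, -0.075, 0.022, -0.226 and 0.229. These medians moved with single libraries. Without APP control replicate 5 the blood median was 0.078 and the endothelial median 0.081, and without APP anti-miR-mix replicate 4 the median was -0.554 for blood and -0.073 for mural cells. The fibroblast median was 0.078 without APP control replicate 4 and 0.565 without replicate 3, and that of oligodendrocyte precursors was 0.024 without replicate 2. In the choroid plexus list Ttr, the thyroid hormone carrier transthyretin, had 34.8 to 57.7 normalized counts in APP control and 23.4 to 1124 in APP anti-miR-mix, with a median of 115.7. Its log2 fold change of 2.31 (SE 0.75) had an adjusted p of 0.972 and an exact permutation p of 0.0956, and it was 0.92 without APP anti-miR-mix replicate 6, the library with 1124.

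**Figure D5:**
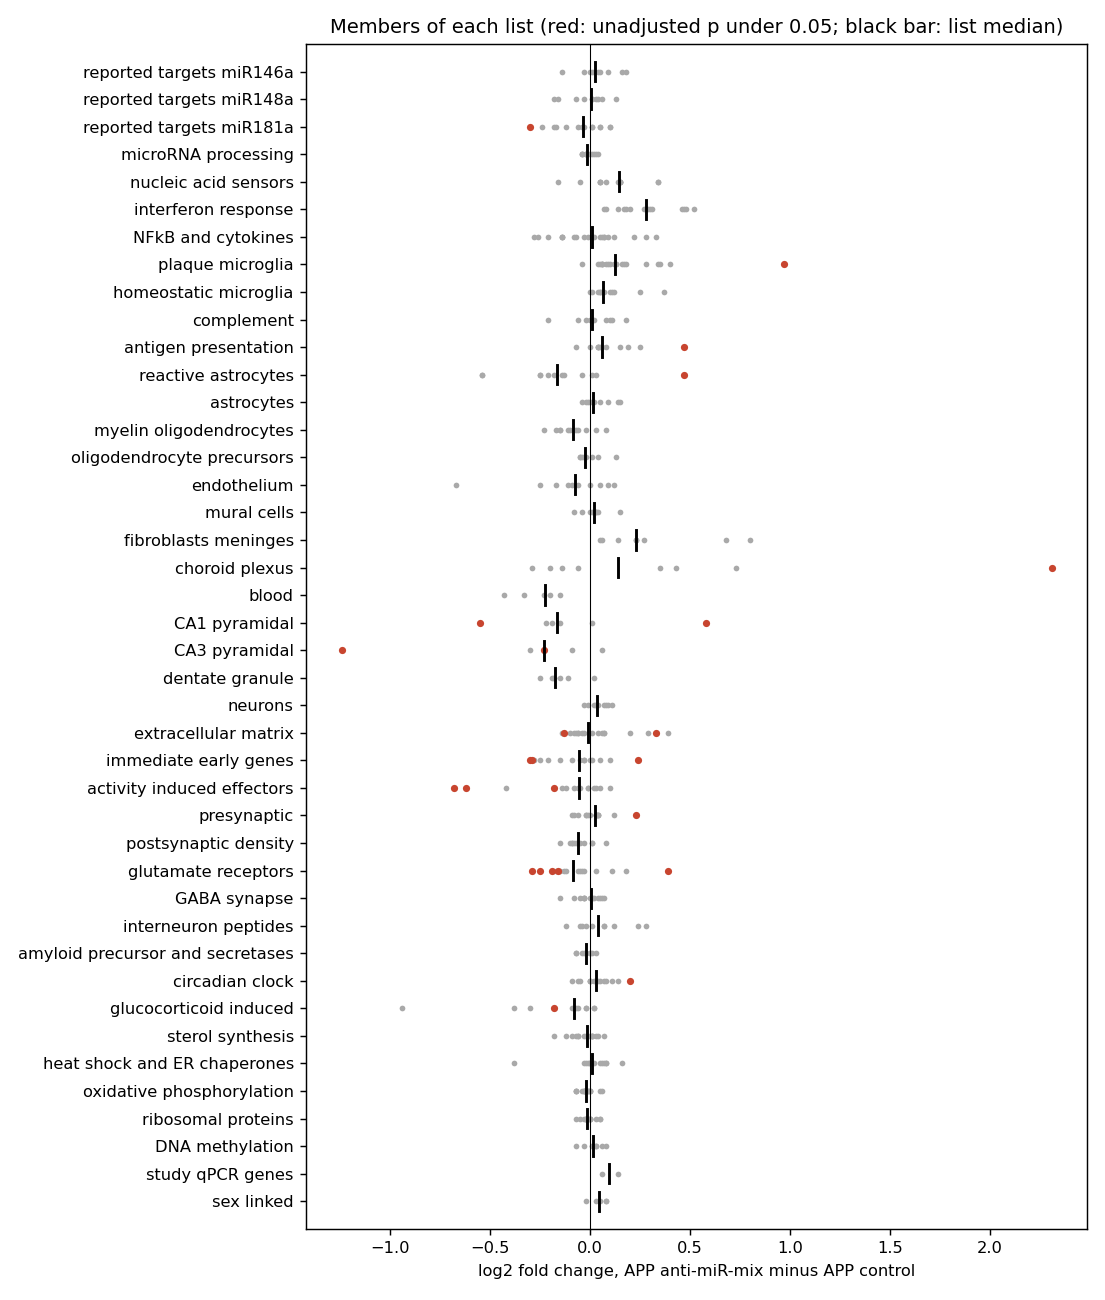
Log2 fold change of each member of the lists (horizontal axis, APP anti-miR-mix minus APP control; 1 row per list), with members at an unadjusted p under 0.05 in red and the list median as a black bar. Most medians lie within 0.1 of 0, the interferon response list has the highest median (0.282), and the points farthest out are Ttr at 2.31 (0.92 without APP anti-miR-mix replicate 6) and Iyd at -1.24.

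Genes of neuronal activity included 1 of the calls. Of 15 activity-induced effectors 11 had a log2 fold change below 0 and 4 above, where 49.6% of all tested genes were above, and 3 were lower at an unadjusted p under 0.05, against 1.53% of all tested genes. Beside Nptx2 these were Ptgs2, the inducible cyclooxygenase (152 to 418 normalized counts in APP control and 129 to 215 in treated libraries, log2 fold change -0.62, SE 0.21), and Scg2, a granin of dense core vesicles (4448 to 5473 and 3472 to 4666, log2 fold change -0.18, SE 0.07). Both had an adjusted p of 1. Of 15 immediate early genes 11 had a log2 fold change below 0 as well, with a median of -0.054 against -0.055 for the effectors. Without APP control replicate 5 these medians were -0.011, with 7 of 15 genes above 0, and -0.022, and the effector median was -0.112 without APP control replicate 2. Nr4a1 (-0.29, SE 0.11) and Fos were lower and Nr4a2 (0.24, SE 0.09) was higher at that level, all with an adjusted p of 1, and Egr1 and Arc differed by 0.05 (SE 0.13) and -0.28 (SE 0.18).

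Of 16 glutamate receptor genes 12 had a log2 fold change below 0 and 4 above, with a median of -0.087. At an unadjusted p under 0.05, 4 were lower and 1 was higher, where 1.53% and 1.78% of all tested genes were. The AMPA subunit Gria1 (25935 to 38146 normalized counts in APP control and 20967 to 31158 in treated libraries, log2 fold change -0.25, SE 0.11), the NMDA subunit Grin2b (-0.16, SE 0.07), the kainate subunit Grik4 (-0.19, SE 0.09) and the AMPA auxiliary subunit Shisa6 (-0.29, SE 0.13) were lower at an unadjusted p under 0.05, and Grm2 was higher (0.39, SE 0.12). None passed the adjusted threshold in the reported fit (adjusted p of 0.972 for Grm2 and 1 for the others), and Grm2 passed it in 2 of 25 alternative fits. The postsynaptic density list had a median of -0.060 and the presynaptic list 0.027, with Stx1a, a fusion protein of the presynaptic membrane, at 0.23 (SE 0.11) as the only member of either at that level. The presynaptic median was -0.015 without APP anti-miR-mix replicate 7, and the postsynaptic median was -0.032 without APP control replicate 1. The GABA synapse, interneuron peptide and general neuron lists had 0 members at that level, with medians of 0.005, 0.040 and 0.033. Without APP control replicate 2 the first and second of these were -0.040 and 0.005, and the neuron median was 0.083 without APP control replicate 6.

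Of 14 circadian clock genes (median 0.028) 1 was higher at an unadjusted p under 0.05, the repressor Cry1 (0.20, SE 0.10). Of 12 glucocorticoid-induced genes 1 was lower, Errfi1, a brake on growth factor receptors (-0.18, SE 0.08). Both genes had an adjusted p of 1. The glucocorticoid median was -0.081, with 10 genes below 0. It was -0.03, with 6 genes above 0, without APP control replicate 5. Over all tested genes 1.78% were higher and 1.53% lower at that level. The lists of sterol synthesis, heat shock and endoplasmic reticulum chaperones, oxidative phosphorylation, ribosomal proteins, DNA methylation, NF-kB and cytokines, and APP with its secretases had 0 members at that level. Their medians were -0.015, 0.010, -0.018, -0.016, 0.017, 0.010 and -0.021, and between -0.065 and 0.054 without a library. App differed by -0.04 (SE 0.05), Thy1 by -0.07 (SE 0.11) and Bace1, the beta-secretase, by 0.01 (SE 0.04). Aff2 and Hivep3, which the study followed by PCR, had 227 to 339 and 276 to 360 normalized counts and 3071 to 3481 and 3049 to 3774, in APP control and APP anti-miR-mix. Their log2 fold changes were 0.14 (95% interval -0.06 to 0.34) and 0.06 (interval -0.06 to 0.18).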

How the data were processed

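Single-end reads of the CA1 region were aligned by the authors to mm10 with STAR (2.5.2b) and counted with featureCounts of Subread (1.5.1), and the deposited counts per Ensembl gene are raw. The authors also deposited a log2 table of normalized values (18825 genes), which entered only as an alternative. The difference of that table from log2(CPM + 1) lay to 99.9998% on a single profile of whole numbers per library. Gene names and positions came from GENCODE M21 (48349 of 48709 identifiers matched).

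Genes that reached 5 counts in 50% or more of the 13 libraries were tested with DESeq2 (1.42.0), the study's tool, with Wald tests, median-of-ratios size factors and Benjamini-Hochberg adjustment at 0.05. 18 genes received no p because of an outlying count. Normalized counts are on the scale of these size factors. Exact permutation tests were two-sided, on log2(normalized count + 1). The smallest p they allow is 0.000583. Their p is unadjusted and is given for genes already picked from the same libraries, so it adds no independent support. Intervals are 1.96 SE wide on each side. Other tools were scipy (1.17.1), numpy (2.4.6) and Python (3.11.15), with edgeR (4.0.16) and limma (3.58.1) in R (4.3.3). The fits were tested on simulated counts. Alternatives changed the test, scaling, filter, covariates and libraries.

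The libraries, lists and tests were chosen with earlier results of these data known. Named were the 12 genes per direction with the smallest unadjusted p at a mean of at least 50, genes past the threshold, list members at an unadjusted p under 0.05 or the 3 most abundant per list, targets on several lists, and the genes that the study followed. The cortex, thalamus and striatum lists and the genes without overlap were chosen after the values were seen.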

Additional observations from a re-analysis of the deposited data

Results flagged for a closer look

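In 18 of 216 groups of values for the named genes and lists, a library at 1 end stood far from its group, relative to the group's range. For independent values with a normal spread the rule would flag about 1 in 20. These groups share the same 13 libraries and hold untransformed counts, so the number flagged cannot be compared with that rate. The values are normalized counts and no cause was tested. APP control replicate 6 was the highest of its group for Amigo2 (472) and the lowest for Tgfb2 (627), and replicate 2 was the lowest for Rad50 (573). APP control replicate 5 was the lowest for Ciita (28.0) and the highest for Errfi1 (1206), Lbr (513) and Zpld1 (26.1). APP anti-miR-mix replicate 4 was the highest of its group for Myo5b (1860) and the lowest for Cux2 (1409). APP anti-miR-mix replicate 7 was the lowest for Irak1 (2072), Ptpn11 (6663) and Phax (938) and the highest for Nr4a2 (3805) and Aff2 (360.4), and replicate 3 was the highest for Egr1 (5387). APP anti-miR-mix replicate 6 was the highest for Ttr (1124) and for the summed choroid plexus list (1960), and the lowest for D630045J12Rik (1837).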

How the results depend on the processing

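The number of genes past the adjusted threshold, 3 in the reported fit, was 1 with edgeR, 0 with all 19 libraries in a fit of 3 groups (552 at an unadjusted p under 0.05), 0 with limma on the deposited log2 table (999 at that level), 22 with Thy1 as a covariate, and 15 in DESeq2 and 1 in edgeR with the adjustment number as a factor, which was added after seeing the data. Leaving out 1 library gave 1 to 51. With the replicate block it was 24. The labels share replicate numbers, but same-numbered libraries correlated between -0.166 and 0.584, and not every library correlated best with its own number, so the replicate numbers were not taken to pair the animals. Of 11 pairs of a control and a treated library with the same adjustment number, 10 correlated above 0 (median r = 0.269), against 10 of 31 pairs with different numbers (median r = -0.103). The same-numbered replicates 3 and 5, which correlated below 0, had different adjustment numbers. What the adjustment number stands for was not tested. The 345 higher genes at an unadjusted p under 0.05 became 539 with limma, 644 with the adjustment number in edgeR and 218 to 654 without a library. The 297 lower genes became 460, 453 and 197 to 497. The 6 genes without overlap became 12 to 50 without a library. The median of the predicted targets minus that of all genes, 0.0010, stayed between -0.0158 and 0.0207 without a library, and was -0.0041 with the replicate block. Of 600 values of the 24 named genes under the alternatives, 538 kept their side of the threshold. Of the rest 37 newly passed it and 25 no longer passed it, and 0 values changed direction. The 24 genes were picked by p in the same libraries that the alternatives use, so a kept direction is no independent support. Of 25 alternative fits, Gm35021 was called in 23, Nptx2 in 15 and Fn1 in 12. The causes of the changes between fits were not tested.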
